A study of Mus musculus with 6 samples.

Results

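Antigen presentation genes were examined in cultured mouse lung fibroblasts: H2-K1, H2-D1 and B2m, which encode the class I molecule, Tap1 and Tap2, the peptide transporter, Psmb8 and Psmb9, subunits of the immunoproteasome, Nlrc5, a regulator of class I genes, and H2-DMb1 and Cd74, which serve the class II pathway. These 10 genes were chosen by name from the pathway, and 8 of them were among the 12470 genes bright enough to be tested. They were read by 12 probes printed as 31 spots. The groups were Mmp19_KO fibroblasts, from mice with a knockout of the matrix metalloproteinase gene Mmp19, and WT fibroblasts, from mice without it. The labels record every animal as female and 11 weeks old, and give neither the strain nor the cell type in which the deletion acts. All mice, WT included, had received 0.08 units of bleomycin, a lung-injuring drug followed by fibrosis, into the trachea, fibroblasts were taken on day 21, and cultures were then kept for 72 hours, so no untreated cells were analysed here. Each group had 3 one-colour microarrays. The series describes them as independent experiments, and where cultures shared animals the p-values measure only the spread between these arrays.

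Class I molecules carry peptides of the cell's own proteins to the surface, where cytotoxic T cells read them. The proteasome cuts those peptides, the transporter moves them into the endoplasmic reticulum, and they bind there to a heavy chain paired with beta-2 microglobulin. Class II molecules present peptides of engulfed proteins, with the invariant chain Cd74 as their early partner and H2-DM as the catalyst that exchanges it for a peptide. Class I genes are active in most cells and rise with interferon, while class II expression is typical of professional antigen-presenting cells and can be induced by interferon gamma in fibroblasts.

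Before the members, the arrays were checked against their labels. The Mmp19 probe stayed near background on all 3 Mmp19_KO arrays and was well above it on all 3 WT arrays, at least 5.33-fold lower in Mmp19_KO (limma, adjusted p = 0.016; 0.00413 to 0.0903 without single arrays, and above the threshold without Mmp19_KO replicate 2 or 3 or WT replicate 3). Xist, the transcript that silences an X chromosome, cleared background on 3 Mmp19_KO arrays and 0 WT arrays, and the Y-linked Eif2s3y and Ddx3y were so on all 6 arrays, although every sample is labelled female. Sex of the cells and genotype cannot be told apart in these arrays. WT replicate 2 was the least like its group: it correlated at 0.9395 and 0.960 with the other WT arrays, and those at 0.984 with each other. Calls of the tested members that rest on that array are therefore given with and without it. Wider pathway genes that passed without it are named with their lists. Of all genes tested, 4.80% passed an adjusted p of 0.05 (598 of 12470), and 1.80% did so with the slide, which held 1 array of each group, as a block.

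Sequences upstream of the members are shown because class I and class II promoters are known for a shared module whose Y box, CCAAT on either strand, is bound by NF-Y. RefSeq promoters of the assembly GRCm38.p6, 250 bases before to 50 after each start, were given for 7 of the 10 members, and H2-K1 had a pair of overlapping starts, which made 8 promoters. The 150 bases before the start are printed 5′ to 3′ on the gene's strand for the class I chains H2-D1, H2-K1 and B2m, for H2-DMb1, the member that passed the test, and for Psmb9, whose start faces that of Tap1, with each Y box in capitals, as CCAAT or as ATTGG where it lies on the other strand. The coordinates are chr17:35262944-35263093 on the plus strand for H2-D1, chr17:34000334-34000483 on the minus strand for H2-K1, chr17:34153041-34153190 on the plus strand for H2-DMb1, chr2:122147537-122147686 on the plus strand for B2m and chr17:34187331-34187480 on the minus strand for Psmb9.
H2-D1: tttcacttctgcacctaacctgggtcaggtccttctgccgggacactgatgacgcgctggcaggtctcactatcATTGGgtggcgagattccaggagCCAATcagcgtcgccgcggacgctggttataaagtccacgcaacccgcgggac
H2-K1: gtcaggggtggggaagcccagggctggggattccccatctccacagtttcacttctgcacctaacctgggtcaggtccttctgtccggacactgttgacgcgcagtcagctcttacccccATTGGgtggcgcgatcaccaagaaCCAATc
H2-DMb1: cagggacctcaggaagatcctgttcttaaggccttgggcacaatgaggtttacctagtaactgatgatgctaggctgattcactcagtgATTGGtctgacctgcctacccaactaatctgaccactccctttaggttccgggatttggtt
B2m: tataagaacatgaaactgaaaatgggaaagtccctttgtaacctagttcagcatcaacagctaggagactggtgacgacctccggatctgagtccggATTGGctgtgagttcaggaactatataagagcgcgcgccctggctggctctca
Psmb9: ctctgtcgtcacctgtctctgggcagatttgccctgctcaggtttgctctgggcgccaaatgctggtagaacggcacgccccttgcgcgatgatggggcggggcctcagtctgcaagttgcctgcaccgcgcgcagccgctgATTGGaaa
A Y box was found in 7 of the 8 promoters, all but that of Psmb8, and in 37.4% of the 32851 promoters of the table. The 10 matches were 7 separate sites, because the windows of H2-K1 hold the same boxes and Tap1 and Psmb9 share theirs, so the 8 promoters are not independent. The 5 letters of this motif are short, so a match is a description and not a binding site. The core of the interferon-stimulated response element, searched as the string GAAANNGAA on either strand, matched in the B2m promoter alone and in 8.56% of all promoters. A STAT dimer site, TTCNNNGAA, was in the Psmb8 promoter alone and in 8.3% of all. The strings GGGANTTCC, for an NF-kB site on either strand, and TGACGTCA, for an X2-like box, were in 0 of the 8 promoters. They were in 1.68% and 1.79% of all. Only these exact strings were searched for, so a promoter without a match may hold any of these elements in another spelling. The windows of Tap1 and Psmb9, which lie on opposite strands, shared 275 bases, with 226 bases between the starts.

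The class I heavy chain H2-K1, which binds the peptide, was lower in signal on every Mmp19_KO array, yet its difference missed the threshold. Signals are given on a log2 scale relative to the 75th percentile of each array, so that 0 is the signal of that percentile. The brighter H2-K1 probe, A_51_P198434, read 4.37, 4.79 and 4.42 on Mmp19_KO arrays, against 5.65, 5.28 and 5.63 on WT arrays. All 3 Mmp19_KO arrays lay below all 3 WT arrays, and the separation held on each slide, by -1.28, -0.49 and -1.21. The log2 difference, Mmp19_KO minus WT, was -0.99 ± 0.22 (SE), or 1.99-fold lower, with an adjusted p of 0.0577 in limma. A fit blocked by slide gave an adjusted p of 0.130, and without WT replicate 2 it was 0.041 at a difference of -1.11. The smallest two-sided p that an exact permutation test of 3 against 3 arrays can give, 0.1, was reached. This probe was printed on 10 spots, whose log2 signals had an SD of 0.061 to 0.148 within an array.

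The second H2-K1 probe, A_55_P2049647, gave 3.40, 3.15 and 3.21 on Mmp19_KO arrays, against 3.90, 2.94 and 3.86 on WT arrays. Its groups overlapped, since WT replicate 2 was the lowest of the 6 arrays, and the difference was -0.32 ± 0.30 (adjusted p = 0.591). The probes of this gene thus differed in size, and heavy chain genes share long stretches of sequence, so that which of them a probe reads is uncertain. H2-D1, the other classical heavy chain, had 4.38, 4.16 and 4.15 in Mmp19_KO, against 4.76, 4.14 and 5.03 in WT. WT replicate 2 was again the lowest array and made the groups overlap. The difference was -0.42 ± 0.27 (adjusted p = 0.426), and it was -0.67 without WT replicate 2 (adjusted p = 0.120).

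B2m, the light chain that every class I molecule needs, differed little. Its signals were 5.68, 6.10 and 6.02 in Mmp19_KO, against 6.12, 5.55 and 5.95 in WT. The groups overlapped, with the lowest value in WT replicate 2 and the highest in WT replicate 1. The difference was 0.06 ± 0.24 (adjusted p = 0.913), and its sign was not stable, being negative in 8 of 19 alternative processings. The probe had 2 spots an array, and their SD reached 0.700 on 1 array.

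**Figure D1:**
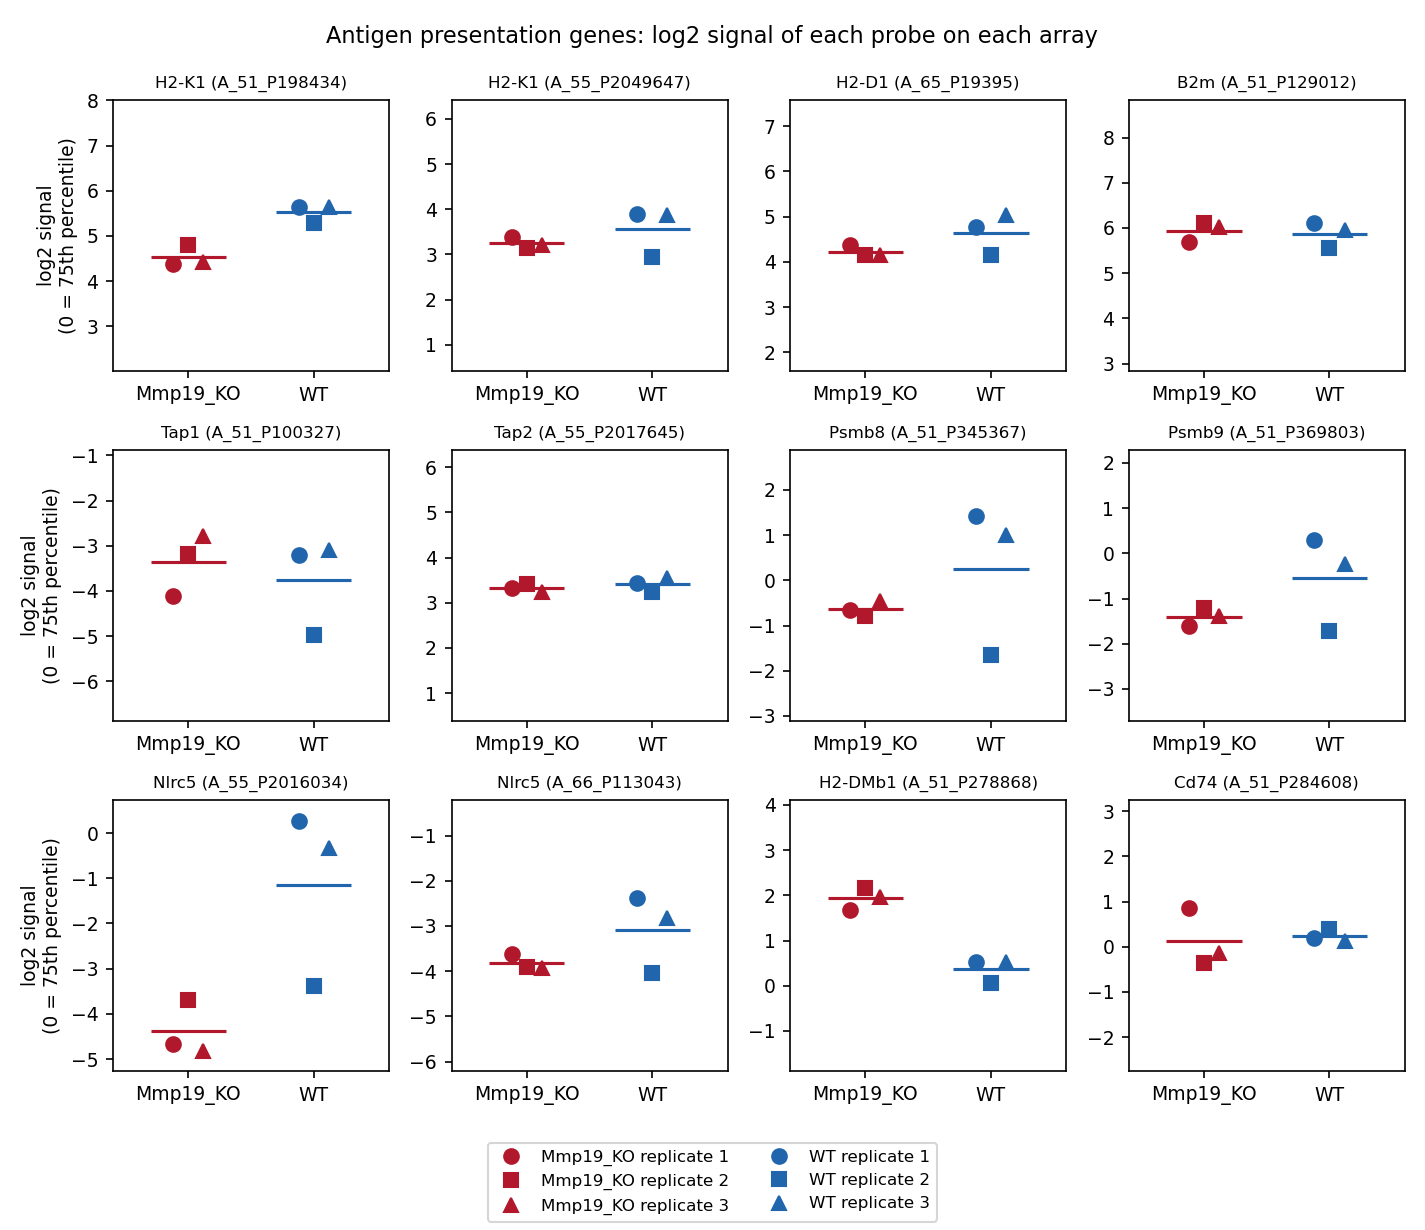
Log2 signal relative to the array's 75th percentile (vertical axis, each panel spanning the same number of log2 units) for the 12 probes of the 10 antigen presentation genes, with Mmp19_KO left of WT. Points are single arrays, shaped by replicate number, and lines are group means. The groups are apart without overlap for the brighter H2-K1 probe, for H2-DMb1 in the other direction and for 1 of the Nlrc5 probes, and WT replicate 2 (square) lies far below the other WT arrays for Psmb8, Psmb9 and Nlrc5.

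For the peptide transporter the data allow little. Tap1, a subunit of the transporter, had -4.11, -3.18 and -2.79 in Mmp19_KO, against -3.20, -4.96 and -3.09 in WT. It was well above background on 2 Mmp19_KO and 2 WT arrays and was therefore not tested, and the groups overlapped. Its 10 spots had an SD of 0.175 to 0.577 within an array. Tap2, the partner subunit, was bright, with 3.32, 3.41 and 3.23 in Mmp19_KO, against 3.44, 3.25 and 3.54 in WT. The groups overlapped, and the difference of -0.09 ± 0.19 (adjusted p = 0.822) was within the spread between arrays.

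The immunoproteasome subunits separated 2 of the WT arrays from all the others. Psmb8, a catalytic subunit that replaces Psmb5, had -0.66, -0.79 and -0.46 in Mmp19_KO, against 1.43, -1.66 and 1.01 in WT. WT replicates 1 and 3 were the highest of the 6 arrays and WT replicate 2 the lowest. Psmb9, which replaces Psmb6, had -1.60, -1.22 and -1.38 in Mmp19_KO, against 0.29, -1.71 and -0.23 in WT. It showed the same order, with the Mmp19_KO arrays between WT replicate 2 and the other WT arrays. With all arrays neither passed, at -0.90 ± 0.76 for Psmb8 (adjusted p = 0.538) and -0.85 ± 0.50 for Psmb9 (adjusted p = 0.375). Without WT replicate 2 both fell in Mmp19_KO, with differences of -1.86 ± 0.24 for Psmb8 (adjusted p = 0.0135) and -1.43 ± 0.25 for Psmb9 (adjusted p = 0.0307). No other single array, when left out, brought either past the threshold.

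Nlrc5, the transactivator of class I genes, showed the widest spread. Its probe A_55_P2016034 read -4.66, -3.69 and -4.81 in Mmp19_KO, against 0.28, -3.39 and -0.33 in WT. All Mmp19_KO arrays lay below all WT arrays, but WT replicate 2 was close to the highest Mmp19_KO array. The probe was well above background on 1 Mmp19_KO array and 2 WT arrays, so it was not tested with all arrays. The difference of the measured means was -3.24, which has no firm size with most Mmp19_KO arrays at background, and p was 0.1 in the exact permutation test, two-sided. Without WT replicate 2 it would enter the test only through the WT arrays where it is high, so no test of it is given. The probe A_66_P113043 of Nlrc5 had -3.61, -3.90 and -3.94 in Mmp19_KO, against -2.38, -4.04 and -2.83 in WT. Its groups overlapped through WT replicate 2, and it was not tested.

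H2-DMb1, the beta chain of the H2-DM catalyst of class II loading, was the single member that passed the test, and it rose in Mmp19_KO. Its signals were 1.68, 2.16 and 1.96 in Mmp19_KO, against 0.52, 0.06 and 0.52 in WT. Every Mmp19_KO array lay above every WT array, on each of the 3 slides by 1.16, 2.10 and 1.44. The means were 1.93 ± 0.24 in Mmp19_KO and 0.37 ± 0.26 in WT (SD, n = 3 each). The log2 difference was 1.56 ± 0.24 (SE), 2.96-fold higher, with an adjusted p of 0.0209 in limma. A fit blocked by slide gave an adjusted p of 0.0739, so the call was lost there. Leaving out Mmp19_KO replicate 1 or WT replicate 2 kept the call (adjusted p = 0.0462 and 0.0237), while leaving out Mmp19_KO replicate 2, Mmp19_KO replicate 3, WT replicate 1 or WT replicate 3 ended it, with adjusted p of 0.0591, 0.115, 0.0542 and 0.0890. The direction held in all 19 alternatives, with differences between 1.38 and 1.69. Its near relative H2-DMb2 was not well above background on any array.

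Cd74, the invariant chain of class II, had 0.87, -0.37 and -0.15 in Mmp19_KO, against 0.19, 0.39 and 0.12 in WT. Mmp19_KO replicate 1 was the highest of the 6 arrays and the other Mmp19_KO arrays the lowest, so the groups overlapped. The difference was -0.12 ± 0.34 (adjusted p = 0.878), and it was 0.13 without Mmp19_KO replicate 2 and 0.02 without Mmp19_KO replicate 3.

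Across the members, 1 of the 8 tested passed an adjusted p of 0.05, beside 4.80% of all genes, and 0 of 8 passed with the slide as a block, beside 1.80%. At an unadjusted p under 0.05 there were 2, H2-K1 and H2-DMb1, beside 21.8% of all genes (2715 of 12470). One member, H2-K1, had all Mmp19_KO arrays below all WT arrays, a pattern that 9.79% of all genes showed, and 1, H2-DMb1, had them all above, which 21.2% showed. The log2 difference was negative for 6 of the 8, beside 5448 of all 12470 genes. The median of the 8 was -0.27, while the median of all genes tested was 0.08. Without WT replicate 2, beside 8.15% of all genes (1071 of 13148), those of the same 8 that passed were H2-K1, Psmb8 and Psmb9, which were lower in Mmp19_KO, and H2-DMb1, which was higher.

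**Figure D2:**
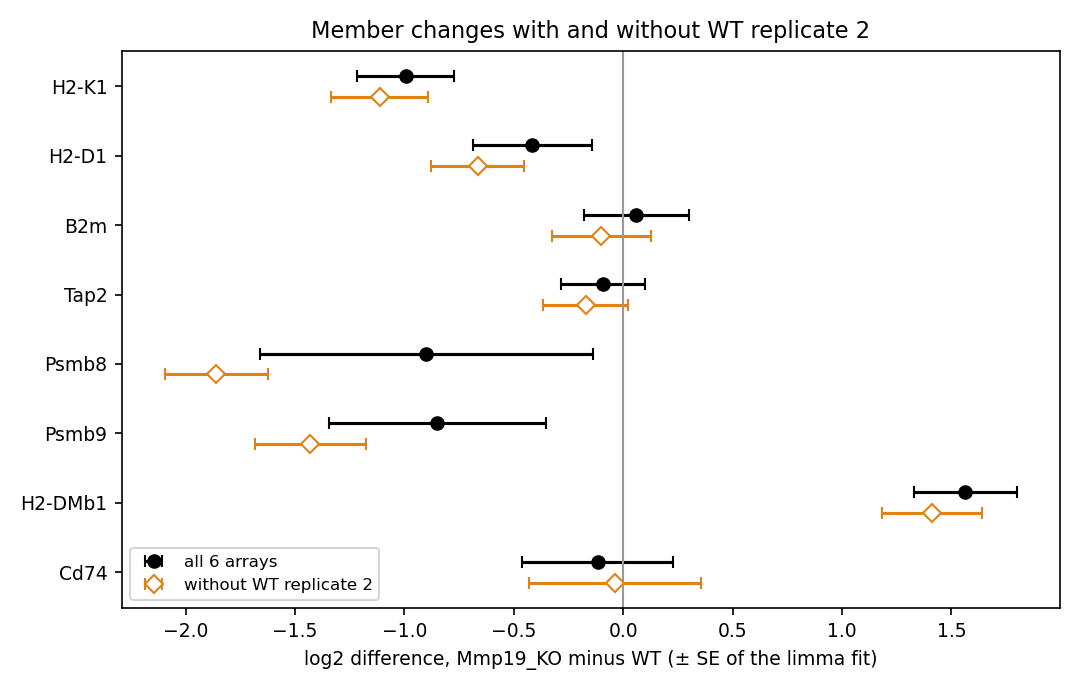
Log2 difference, Mmp19_KO minus WT, of each of the 8 genes tested with all arrays, with its SE from limma, for all 6 arrays (filled) and without WT replicate 2 (open). H2-DMb1 is to the right of 0 in both fits, and Psmb8 and Psmb9 move to -1.86 and -1.43 without that array.

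The slides gave different pictures. These counts include Tap1 and Nlrc5, which were near background and not tested, and the share of all genes on each slide was not computed. On slide 1, 8 of the 10 members were lower on the Mmp19_KO array, with a median difference of -0.68, and 6 of the 8 tested, with -0.41. On slide 3, 7 of 10 were lower, with a median of -0.59, and 6 of the 8 tested, with the same median. On slide 2, which held WT replicate 2, 3 of 10 and 2 of the 8 tested were lower, and either median was 0.33. H2-DMb1 was higher on all 3 slides, and A_51_P198434 of H2-K1 and A_55_P2016034 of Nlrc5 were lower on all 3, while the other probe of each was lower on 2 and higher on slide 2, by 0.21 for H2-K1 and 0.14 for Nlrc5.

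The mean profile of the 8 tested members, each centred on its own mean, was -0.11, -0.08 and -0.14 on Mmp19_KO arrays and 0.44, -0.45 and 0.33 on WT arrays. The spread within WT was thus wider than the step between the groups. Among 12071 other genes, the profiles nearest to it over the 6 arrays were those of Zfp523, a zinc finger protein, with a root mean square log2 difference of 0.040, H2-Q2, a class I-like gene, with 0.050, Pwp1, a WD repeat protein, with 0.052, Pdss1, a subunit of the enzyme that makes the ubiquinone side chain, with 0.055, and Sart3, a splicing factor, with 0.063. This likeness is a description over 6 arrays, WT replicate 2 included, and no test was made.

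The wider pathway was described with 10 lists holding 131 further genes, of which 98 were tested, 2 rose and 2 fell, 4 in all beside the 4.80% of all genes. The median of the 98 was 0.10, close to that of all genes. With the slide as a block 1 passed, beside 1.80%. The peptide loading list had 13 genes tested and 1 that rose, Pdia3, a disulfide isomerase of the loading complex, with 4.63, 4.87 and 4.99 in Mmp19_KO, against 3.52, 3.70 and 3.86 in WT. Every Mmp19_KO array was above every WT array, by 1.14 ± 0.21 (adjusted p = 0.0338, and 0.0723 with the slide as a block). With arrays left out singly the call held only without WT replicate 2, and the adjusted p was 0.0691 to 0.174 otherwise. The list median was 0.44.

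The list of immunoproteasome genes and activators had 6 tested and 1 that fell, Pomp, the chaperone that assembles proteasomes of either kind. Pomp had 4.33, 4.02 and 4.03 in Mmp19_KO, against 5.56, 5.96 and 5.78 in WT, groups that lay well apart. Its difference was -1.64 ± 0.21 (adjusted p = 0.0142, and 0.0598 with the slide as a block). Leaving out Mmp19_KO replicate 3 or WT replicate 3 ended the call of Pomp, at an adjusted p of 0.0949 and 0.0786. The 3 constitutive subunits that immunoproteasome subunits replace included 0 that passed, with Psmb7 at 0.60 (adjusted p = 0.188) and Psmb6 at -0.21 (adjusted p = 0.566).

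Of the class I heavy chains and class I-like genes, 13 were tested and 0 passed with all arrays, with a median of -0.04. An unadjusted p under 0.05 was found for 2, beside 21.8% of all genes. Those with the smallest p were Fcgrt, the neonatal Fc receptor, at 0.90 ± 0.25 (adjusted p = 0.0955), and Mr1, which presents vitamin B metabolites, at 1.10 ± 0.37 (adjusted p = 0.153). Both were picked by p, and over the 13 genes tested in the list 7 differences were negative and 6 positive.

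The class II chains were dim. H2-Aa, the alpha chain of I-A, was not well above background on any array, and 3 of 8 listed genes were tested with 0 passing. H2-Ab1, the beta chain of I-A, differed by 0.29 (adjusted p = 0.469), and H2-DMa, the chain that pairs with H2-DMb1, by 0.18 ± 0.33 (adjusted p = 0.800). Ciita, the master regulator of class II genes, was well above background on 2 Mmp19_KO arrays and 0 WT arrays, with -2.84, -3.05 and -4.36 in Mmp19_KO, against -4.30, -3.06 and -4.74 in WT, and was not tested. These groups overlapped. In the list of class II peptide generation, 10 genes were tested and 1 rose, Ctsb, a lysosomal protease, with 7.44, 7.68 and 7.35 in Mmp19_KO, against 6.45, 6.57 and 6.46 in WT. Its groups were apart, by 0.99 ± 0.19 (adjusted p = 0.0403, and 0.0899 with the slide as a block), and without single arrays it passed only when WT replicate 2 was left out, the adjusted p being 0.0928 to 0.158 otherwise. In this list 9 of the 10 genes had a positive difference, with a median of 0.68. Of all 12470 genes tested, 4.80% passed and 7022 had a positive difference, with a median of 0.08.

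Genes of interferon signalling gave 1 call. Usp18, an interferon-induced brake on the type I receptor, fell in Mmp19_KO, with -0.85, -1.38 and -0.93, against 1.91, 1.20 and 1.69 in WT. WT replicate 2 was the lowest WT array here too, but it lay above every Mmp19_KO array. The difference was -2.65 ± 0.27 (adjusted p = 0.00641), and the call held with the slide as a block (adjusted p = 0.0271) and in 5 of the 6 fits without 1 array, but not without WT replicate 3 (adjusted p = 0.0511). The 10 other tested genes of interferon receptors and feedback did not pass with all arrays. Of 15 tested interferon gamma targets outside presentation 0 passed with all arrays and 6 had an unadjusted p under 0.05, beside 21.8% of all genes. Over the 15, 9 differences were negative and 6 positive, with a median of -0.12. Among the 6 was Icam1, well above background on 3 Mmp19_KO and 2 WT arrays. Icam1 entered the test only through the Mmp19_KO arrays, where it is high, so no difference is given for it. Gbp3 and Cd274 were picked by p. Gbp3, a guanylate-binding protein, was at -1.48 ± 0.44 (adjusted p = 0.114). Cd274, the ligand of PD-1, was well above background on 2 Mmp19_KO and 3 WT arrays. It entered the test only through the WT arrays, where it is high, so no difference is given for it.

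Among the 18 tested regulators of class I and II genes 0 passed and 4 had an unadjusted p under 0.05, close to the 21.8% of all genes. Kat2b, an acetyltransferase, was at 0.85 (adjusted p = 0.158). Rfxap, a subunit of the RFX complex, was well above background on 3 Mmp19_KO arrays and 1 WT array. It entered the test only through the Mmp19_KO arrays, where it is high, so no difference is given for it. Of 6 tested genes of costimulation and adhesion 0 passed and 3 had an unadjusted p under 0.05, against that same share. They were Cd276, an inhibitory B7 relative, at 1.01 (adjusted p = 0.110), Lgals9, a galectin, at 1.39 (adjusted p = 0.134), and Cd80, at -0.59 (adjusted p = 0.178). Over the 6, 3 differences were negative and 3 positive, with a median of 0.01. Without WT replicate 2, 11 of the 103 wider genes then tested passed, 9 of them lower, beside 8.15% of all genes (481 higher and 590 lower). Those 9 include Cd40, a costimulatory receptor, and Cxcl10, a chemokine, which entered the test only through the 2 WT arrays where they are high and were well above background on 0 and 1 Mmp19_KO arrays, so no difference is given for them. In that fit Usp18 was at -2.85, Gbp3 at -1.99, Hfe at -1.66 and Parp14 at -1.63. Pomp was at -1.54, Jak2 at -1.14 and H2-T10 at -1.07, while Pdia3 was at 1.14 and Ctsb at 1.03. With all arrays Gbp3, Hfe, Parp14, Jak2 and H2-T10 had not passed, at an adjusted p of 0.114, 0.453, 0.223, 0.333 and 0.695. The genes given from this fit were named after their values were seen.

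**Figure D3:**
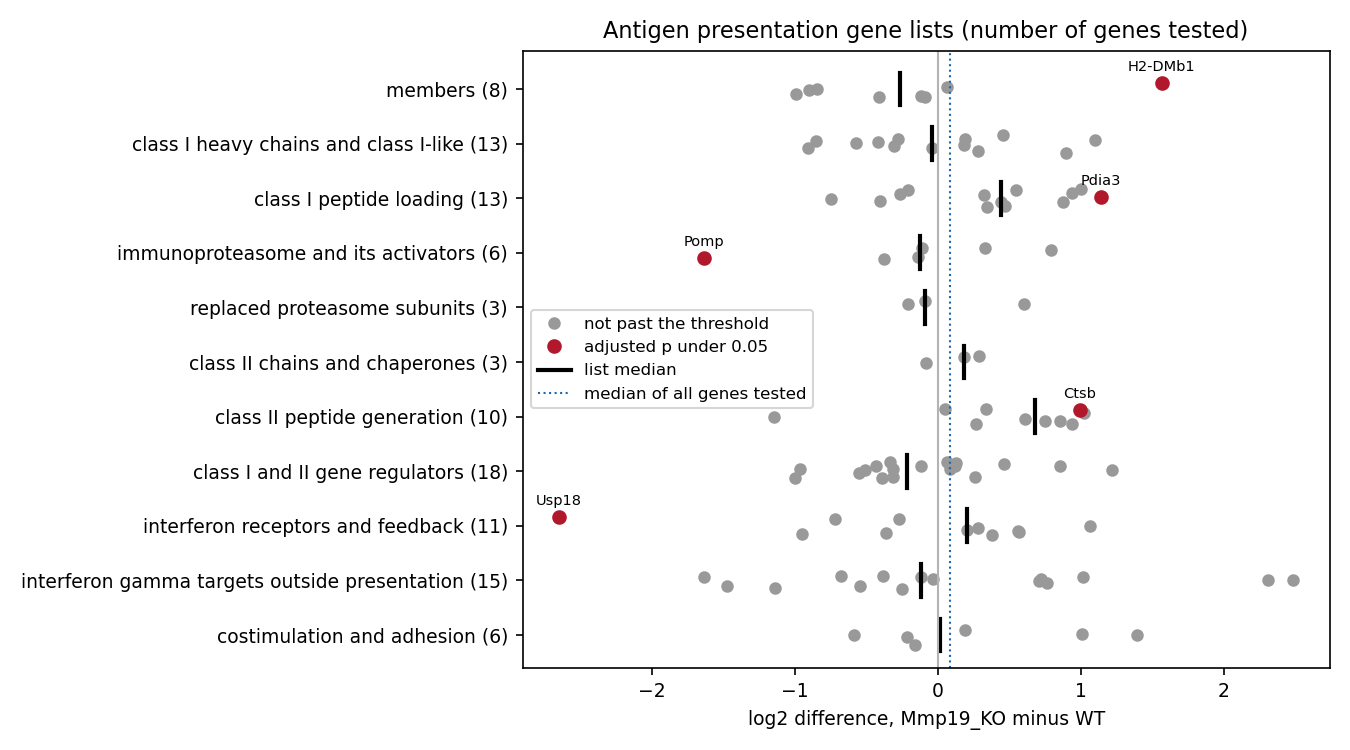
Log2 difference, Mmp19_KO minus WT, of each tested gene (points) in the 10 antigen presentation genes and in 10 lists of the wider pathway, with the list median (black bar), the median of all genes tested (dotted line, 0.08) and genes past an adjusted p of 0.05 in red. Vertical scatter within a list only separates the points. The 5 named genes are those past the threshold, and most points of every list lie between -1 and 1.

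Of the 10 members 7 lie on chromosome 17, in the H2 region that runs in annotated gene order between H2-K1 and H2-D1. The region held 122 annotated genes, 57 of which were tested, and 3 passed, all higher in Mmp19_KO, a share close to the 4.80% of all genes (412 higher and 186 lower). They were H2-DMb1 and a pair of complement genes, C2, which forms the convertase with C4, and C4b, a C4 gene. C2 had 4.30, 3.85 and 3.88 in Mmp19_KO, against 0.68, 0.64 and 0.57 in WT, and C4b had 3.28, 4.29 and 3.89, against 2.59, 1.70 and 1.97 in WT. In both genes the groups were apart. The differences were 3.38 ± 0.21 for C2 (adjusted p = 0.00257, and 0.0246 with the slide as a block) and 1.73 ± 0.35 for C4b (adjusted p = 0.0433, and 0.122 with the slide as a block). Leaving out any 1 array ended the call of C4b, with an adjusted p of 0.0535 to 0.181, while C2 passed in 6 of 6 such fits. Among the 9 antigen presentation genes tested in the region 1 passed, and among the 48 others 2 did. C4b has a close copy, C4a, so which of them its probe reads is uncertain.

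**Figure D4:**
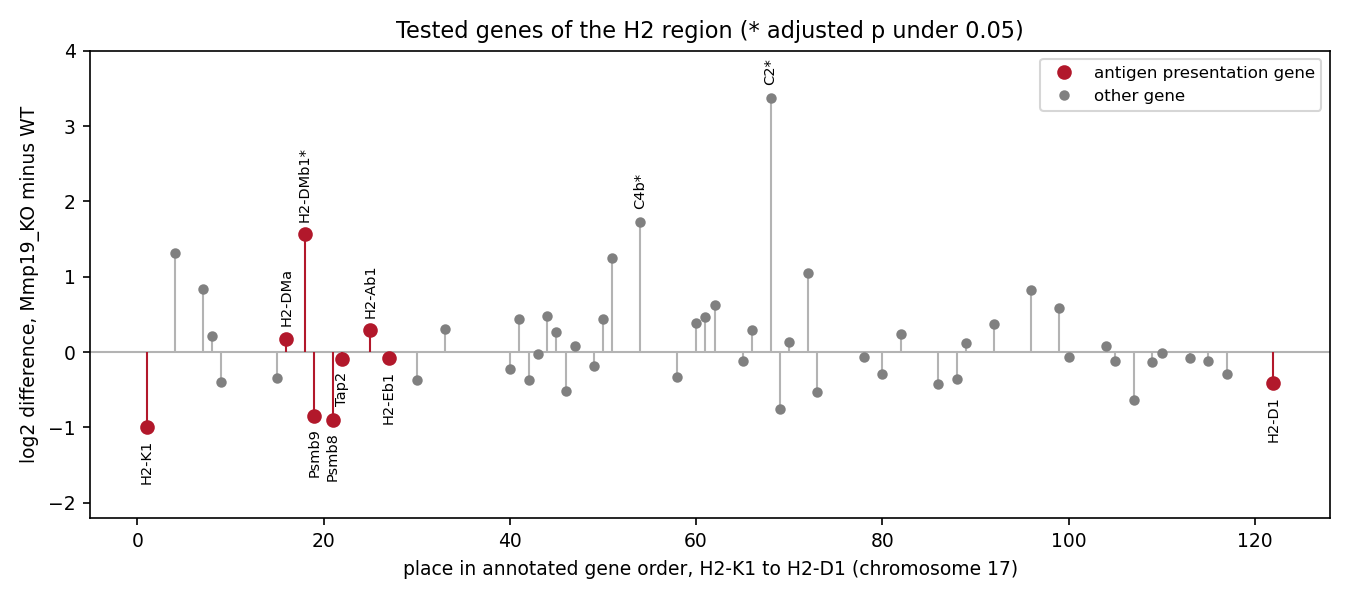
Log2 difference, Mmp19_KO minus WT, of the 57 tested genes of the H2 region by their place in annotated gene order (horizontal axis, counted from H2-K1). Antigen presentation genes are red, and an asterisk marks an adjusted p under 0.05, reached by H2-DMb1, C4b and C2. The classical class I genes stand at the ends, both below 0, and the class II and proteasome genes lie together near the left end on both sides of 0.

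Marker genes of the cells that could carry these transcripts were read on the same arrays. Of 12 fibroblast markers 11 were well above background on all 6 arrays, with a summed linear signal, in units of the array's 75th percentile, of 2588 to 2694 in Mmp19_KO and 1305 to 2451 in WT. Of 8 dendritic cell markers 0 were so on all arrays, and Itgax, Flt3, Xcr1, Cd209a and Clec9a were so on none, with sums of 0.394 to 0.462 in Mmp19_KO and 0.355 to 0.823 in WT. The other 3 were well above background on some arrays, Zbtb46 on 2 Mmp19_KO and 2 WT, Batf3 on 1 Mmp19_KO and 2 WT, and Ccr7 on 2 Mmp19_KO and 0 WT. Of 6 B cell markers Cd22 was so on all arrays, Cd79b on 1 Mmp19_KO and 3 WT, and 4 on none. Their sums were 0.622 to 1.32 in Mmp19_KO and 0.780 to 0.991 in WT. T and NK cell markers, 5 of 12 so on all arrays, summed to 7.52 to 10.2 and 7.03 to 9.60. Endothelial markers, 5 of 8 so on all arrays, summed to 3.71 to 5.43 and 4.06 to 5.73. These 3 pairs of sums overlapped.

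Of 17 macrophage and monocyte markers with a probe, 6 were well above background on all arrays, among them Csf1r and Itgam, while Mrc1 and Fcgr1 were so on none. Their sums were 50.1 to 111 in Mmp19_KO and 61.1 to 74.96 in WT, which overlapped. Mesothelial markers summed to 40.9 to 112 in Mmp19_KO and 2.05 to 16.9 in WT, and 5 of 8 passed as higher, beside 4.80% of all genes. Of these 5, Upk3b, Lrrn4 and Bnc1 entered the test only through the Mmp19_KO arrays where they are high. They were well above background on 2, 2 and 1 WT arrays. Msln and Wt1 were well above background on all 6 arrays. Of 11 lung epithelial markers 8 were well above background on all 6 arrays, among them Sftpc and Scgb1a1, while Epcam and Muc1 were so on none. The 11 summed to 56.5 to 63.0 in Mmp19_KO and 41.3 to 49.3 in WT. That difference was carried by Krt18, a keratin, at 2.55 ± 0.70 (adjusted p = 0.0941): the other 8 tested epithelial markers had negative differences, 0 of the 9 passed, and without Krt18, left out after its value was seen, the sums were 31.5 to 58.9 in Mmp19_KO and 39.0 to 48.1 in WT, which overlapped. The sums of the fibroblast and mesothelial markers did not overlap between the groups, and the part of such cells in the H2-DMb1 result was not tested. In cultures measured whole, fewer cells of a type and less RNA per cell cannot be told apart.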

How the data were processed

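Total RNA of 6 fibroblast cultures was labelled with Cy3 from 0.5 µg for Agilent arrays of 1 colour, as the labels' protocols state. The deposited tables give, for every spot, a background-subtracted processed intensity, median intensities and flags, made by Agilent Feature Extraction 10.7.3.1 per the file headers. The submitters' processing notes name version 9.1, and the difference is not settled. The authors also deposited log2 values, whose column medians ran from 5.51 to 5.76 and whose centring is unknown; they served as an alternative.

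Spots of 1 probe were averaged, and log2 processed intensities were set relative to the 75th percentile of their array. The 24214 of 55681 probes that cleared background on every array of Mmp19_KO or of WT entered the test, lmFit and eBayes (limma 3.58.1, R 4.3.3), two-sided. Adjustment was by Benjamini-Hochberg over all of them, with a threshold of 0.05. No spot was saturated. The fit was also run on simulated data with independent noise, no outlying array and changes larger than those of the tested members. That run therefore does not speak to the member results. Genes were named by unversioned RefSeq accession through the GRCm38.p6 annotation (47.4% of probes matched, the others are unnamed here), and the brightest tested probe stood for its gene. The array design used build mm9, per the file headers, and coordinates printed are those of the RefSeq promoters on GRCm38.p6. A fold given as "at least" set the bright group's mean against the mean, per dim array, of either the lowest signal well above background or, if higher, the signal of that probe. The number of arrays limits the precision.

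Each slide held the Mmp19_KO and WT arrays of 1 replicate number, so the slide block and the replicate block are 1 fit. Deviations from group means correlated at 0.0958, -0.0206 and 0.210 within slides, and no pairing was assumed. The genes, lists, tests and 19 alternatives were chosen with earlier results of these data known. Named were all members, from each list the genes past the threshold (at most 4, by size of change) or, if none passed, at most 2 by smallest p, up to 4 of the H2 region past it, and the 5 genes with the nearest profile. Others were named beside these, among them the wider pathway genes that passed without WT replicate 2.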

Additional observations from a re-analysis of the deposited data

How the results depend on the processing

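Over 19 alternatives, including 6 that left out 1 array each, the median difference of the tested members was negative in 19, between -0.49 and -0.20. Of 152 single differences of the 8 tested members, 122 kept direction and side of the threshold, 7 lost the call, 13 gained it and 10 changed sign. H2-DMb1 passed in 12 alternatives and H2-K1 in 8. The changes of sign concerned B2m, at -0.015 with normexp, -0.071 with quantile, -0.017 with cyclic loess, -0.057 with the 75th percentile over detected probes, -0.0099 with their median and -0.035 with the authors' values, and -0.10 to 0.19 without single arrays, and Cd74, at -0.49 to 0.13 without single arrays. The members called were 2 of 8 with quantile, cyclic loess, either scaling over detected probes, the authors' values or a trended robust prior (H2-DMb1 and H2-K1). Those settings called 4.78% to 5.49% of all genes. With probes detected on at least 1 array or with no filter on dim probes, settings that test more probes, 0 of 10 members were called, beside 1.31% and 0.38% of all genes. The replicate block gave 0 members, 1 wider pathway gene, 1 gene of the H2 region and 385 probes, against 1, 4, 3 and 1124 without it. The share of all genes called was 1.80% with the block and 4.80% without it. Array weights ran from 0.248 for WT replicate 2 to 4.44 for Mmp19_KO replicate 3. They gave 5 of 8 members, 38 of 98 wider pathway genes, 16 of 57 genes of the region and 5962 probes. These stand beside 25.6% of all genes called in that fit, and the cause was not tested. Probes past the threshold were 633 with normexp, 650 with a filter on all 6 arrays, 345 with a filter on at least 1 array and 113 with none. Those last filters left 2 and 1 wider pathway genes and 1 gene of the region each, while cyclic loess and the authors' values gave 5 genes of the region. Without single arrays the counts ran over 108 to 1913 probes, 0 to 5 members, 0 to 11 wider pathway genes and 1 to 7 genes of the region. The share of all genes called ran from 0.561% to 8.15%. The highest were all without WT replicate 2, where Nlrc5 is counted although only its WT arrays let it in. The split of calls was 697 higher and 427 lower, but 608 and 563 with the 75th percentile over detected probes, where the median of all genes was -0.03, against 0.08 in the reported fit and -0.05 with the authors' values. Tap1 and Nlrc5 were limited by signal near background.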
